A study of Mus musculus with 32 samples.

Results

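Kelch and ankyrin adaptors of cullin ubiquitin ligases were followed in the gastrocnemius muscle of mice after complete spinal cord injury (SCI), with and without boldine. The genes were chosen by name and level, as the protein-coding genes called Klhl, Kbtbd or Asb with a number, whose mean over the 32 libraries was 1 CPM (read counts scaled to a common library total) or more. Of the 63 genes with such names in the annotation, 52 met the rule, namely 29 of 36 Klhl, 7 of 9 Kbtbd and 16 of 18 Asb genes. Just inside the threshold lay Klhl3 at 1.52, Klhl36 at 1.65 and Kbtbd8 at 2.82 mean CPM, and just outside it Kbtbd11 at 0.877, Klhl4 at 0.849 and Klhl6 at 0.830. The other genes below the threshold were Asb9, Asb17, Kbtbd6, Klhl10, Klhl14, Klhl32, Klhl35 and Klhl1, of which Klhl1 had a count of 0 in all libraries.

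Cullin-RING ligases attach ubiquitin to proteins that an exchangeable adaptor holds in place. Klhl and Kbtbd proteins carry a BTB domain, which binds the scaffold Cul3, and kelch repeats, which bind the substrate. Asb proteins carry ankyrin repeats, which bind the substrate, and a SOCS box, which joins them through Elongin B and Elongin C to the scaffold Cul5. Several of these adaptors are known from striated muscle, and in humans variants of KLHL40, KLHL41 and KBTBD13 cause nemaline myopathy, a disease of the thin filament. From such knowledge 18 members were listed as muscle-rich (Klhl30, Klhl31, Klhl33, Klhl34, Klhl38, Klhl40, Klhl41, Kbtbd12, Kbtbd13, Asb2, Asb5, Asb10, Asb11, Asb12, Asb14, Asb15, Asb16 and Asb18). The other 34 are called widely expressed here. That name stands for the remainder, and breadth of expression was not assessed. Both lists were drawn with earlier results of these data known, so contrasts between them are descriptions.

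Messenger RNA of the gastrocnemius, a calf muscle, was sequenced in young male mice 7 or 28 days after surgery, from libraries of a kit that does not keep strand. At each time 4 mice had sham surgery and vehicle, 6 had a complete SCI and vehicle, and 6 had a complete SCI and boldine, a plant alkaloid described as a blocker of connexin and pannexin hemichannels. The labels name no strain, genotype or dose, the RNA came from pieces with equal parts of both heads, and such tissue holds fibres together with vessels, nerve and connective tissue. Library totals lay between 9935424 and 14132960 counts, and all 8 fibre markers listed for the tissue (Acta1, Ckm, Ttn, Myh4, Myh1, Tnnt3, Mb and Mylpf) were counted in every group. The libraries also fell into 2 sets that no label explains: Hipk2 held 4.97 to 21.8 CPM in all 28-day sham libraries and in 28-day SCI vehicle libraries 1 to 4, against 47.0 to 119 CPM in the remaining 24. At 28 days sham and boldine thus lie wholly in different sets, and only the SCI vehicle group spans both. The 28-day SCI boldine library 6 has a description code of the kind used for vehicle libraries, while its title and treatment label say boldine, and it was kept as boldine. The labels do not say how mice were housed, operated or dosed, so a p-value here reflects only the spread among these samples.

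Levels are CPM after TMM scaling, which sets libraries level by a trimmed mean of log ratios, and are given as mean ± SD over 4 sham or 6 SCI libraries. A gene was called where edgeR's quasi-likelihood test gave an adjusted p under 0.05 over the 14955 genes tested. All 52 members passed the filter on low counts.

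In sham muscle the muscle-rich members stood above most of the others, which follows at least in part from how the list was drawn. Per kilobase of exon, 7-day sham levels of the 18 muscle-rich members ran from 4.59 to 234 CPM with a median of 39.6, and those of the 34 widely expressed members from 0.205 to 62.4 with a median of 1.83. Klhl41, which binds the thin filament protein nebulin, led with 234 ± 13.3 CPM per kilobase, before Asb2, an adaptor for filamins A and B, with 203 ± 45.9. The 2 levels differed by less than the SD of Asb2, though by more than that of Klhl41. Asb5 followed with 114 ± 8.76 and Klhl31, which directs the turnover of filamin C in mouse muscle, with 67.4 ± 4.54. Klhl21, a Cul3 adaptor for the mitotic kinase Aurora B in human cells, came next with 62.4 ± 6.35 and was the only widely expressed member among the top 10, the others being Asb14, Klhl40, Asb10, Asb11 and Klhl33. Within the trio Asb14, Klhl40 and Asb10, and within the pairs of Klhl31 with Klhl21 and of Asb11 with Klhl33, neighbours in this order differed by less than the larger SD.

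**Figure D1:**
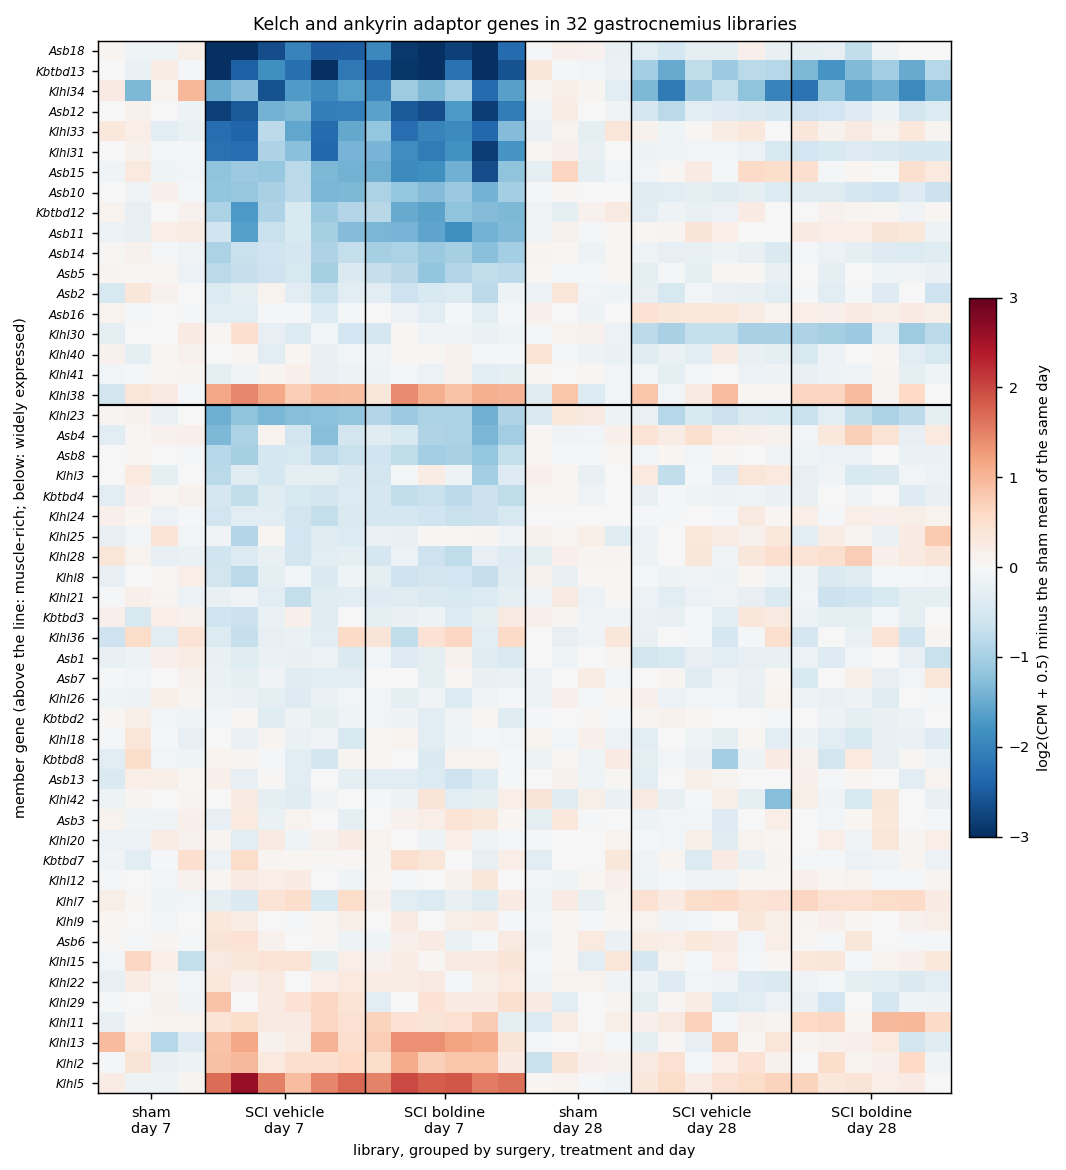
Each row is a member and each column a library, grouped by surgery, treatment and day; colour is log2(CPM + 0.5) minus the mean of the 4 sham libraries of the same day, from -3 (blue) to 3 (red). Most muscle-rich members, above the line, are blue in all 12 injured libraries at day 7 and near white at day 28, while Klhl38 and Klhl5 are red at day 7.

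Promoter sequences are shown because they are a feature the gene list did not use and because many of the muscle-rich members moved together. RefSeq windows of GRCm38.p6, from 250 bases before to 50 bases after an annotated start, were found for 46 of the 52 members (none for Asb3, Klhl8, Klhl24, Klhl30, Klhl38 and Klhl42). The MEF2 motif, the site of a family of muscle transcription factors, was searched by its usual 10-base pattern on both strands. It was present in 8 of 16 muscle-rich genes (50%), in 0 of 30 widely expressed genes and in 3.70% of all 27025 genes with a window. The 8 matches are shown in capitals with 10 bases on each side, 5′ to 3′ on the strand of the gene:
Klhl33 (chr14:50897514-50897543, minus strand): ctcaggctagCTATAATTAGccaagtgcgg
Klhl41 (chr2:69670047-69670076, plus strand): gagccggtgtCTATATTTAGccggtgggat
Kbtbd12 (chr6:88627501-88627530, minus strand): ctcgcttggtCTATTTATAGtgcttgtcag
Asb5 (chr8:54571348-54571377, plus strand): agtctctgctTTAAAAATAGaaaatggtac
Asb12 (chrX:95478158-95478187, minus strand): ggagggcagaCTAAAAATAGccacctagaa
Asb14 (chr14:26894574-26894603, plus strand): tatagtaaagCTATTTATAAtggtcaccgg
Asb16 (chr11:102268683-102268712, plus strand): agtgaggggcCTATTTATAGcctcagctgt
Asb18 (chr1:90014658-90014687, minus strand): agccctgattCTATTTATAGccatctgtcc

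All 8 matches began before the start site, between position -91 in Kbtbd12 and position -11 in Asb18. The E-box CAGCTG, the form that myogenic factors prefer, was found in 7 of 16 muscle-rich genes (43.8%), 4 of 30 widely expressed genes (13.3%) and 18.3% of all genes. The general E-box CANNTG, which includes CAGCTG, was found in 15 of 16 (93.8%), 13 of 30 (43.3%) and 75.0%. The FOXO motif GTAAACA, searched on both strands, was found in 2 of 16 muscle-rich genes (Asb16 and Asb18), in 0 of 30 widely expressed genes and in 4.05% of all genes. A match is a run of letters and not evidence of binding.

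The bases before the start are given in full for Asb18, the member with the largest fall after injury, and Klhl41, the member with the highest level. Capitals mark the MEF2 motif, CAGCTG and, in Asb18, GTAAACA:
Asb18 (chr1:90014667-90014916, minus strand): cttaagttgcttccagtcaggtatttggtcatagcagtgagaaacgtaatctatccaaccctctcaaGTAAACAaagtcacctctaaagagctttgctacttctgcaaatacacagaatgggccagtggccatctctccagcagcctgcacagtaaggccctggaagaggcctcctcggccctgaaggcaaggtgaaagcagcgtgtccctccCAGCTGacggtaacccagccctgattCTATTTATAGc
Klhl41 (chr2:69669870-69670119, plus strand): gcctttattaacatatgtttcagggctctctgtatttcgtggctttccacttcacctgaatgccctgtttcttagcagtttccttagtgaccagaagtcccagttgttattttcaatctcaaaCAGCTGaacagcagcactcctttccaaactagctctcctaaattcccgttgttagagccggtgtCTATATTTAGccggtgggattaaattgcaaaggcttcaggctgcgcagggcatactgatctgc

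In both, CAGCTG lies before the MEF2 match, starting at position -37 in Asb18 and -127 in Klhl41. Among the muscle-rich genes with a MEF2 match 7 of 8 were called lower 7 days after SCI, and among those without one 6 of 8. For CAGCTG these were 4 of 7 with a match and 9 of 9 without. Of all genes 23.1% were called lower, and of all 18 muscle-rich members 13 were. Klhl30 and Klhl38, muscle-rich members without a window, were not called lower. The exception with a MEF2 match was Klhl41.

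**Figure D2:**
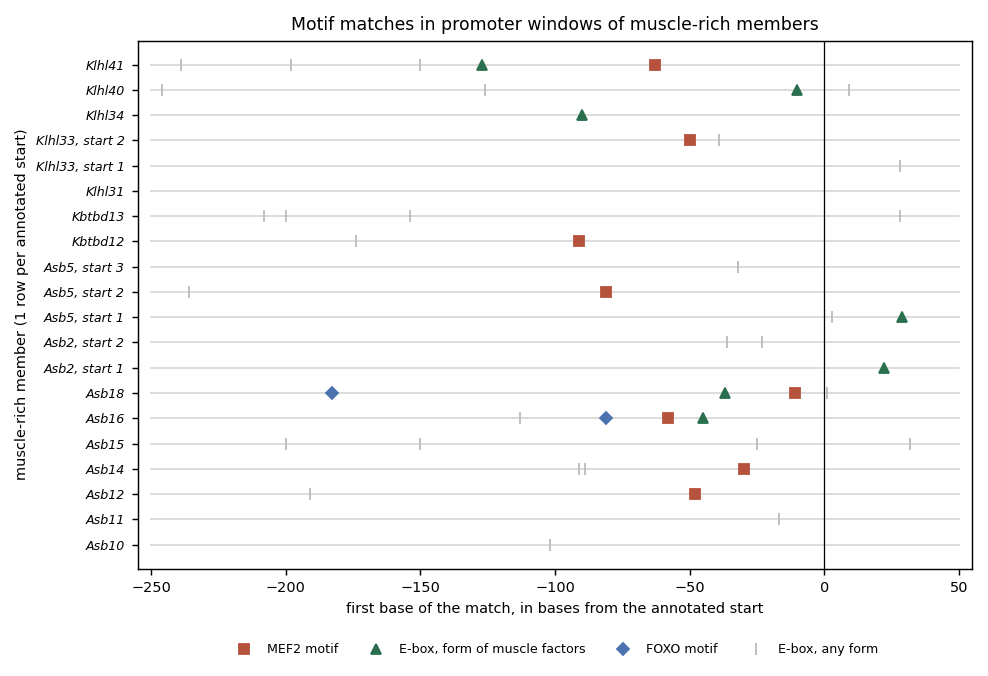
Each row is an annotated start of a muscle-rich member; the horizontal axis gives the first base of each match in bases from that start, over the whole window. Squares are MEF2 matches, which all lie between -91 and -11, triangles CAGCTG, diamonds the FOXO motif and grey ticks any other E-box.

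At 7 days after SCI many muscle adaptors had fallen and few adaptors had risen. Of the 52 members 22 were lower and 4 higher in SCI vehicle than in sham, beside 23.1% of all genes lower, 21.5% higher and 44.6% called in either direction. Of the 18 muscle-rich members 13 fell and 1 rose, with a median log2 fold change of -0.95, and of the 34 widely expressed members 9 fell and 3 rose, with a median of -0.14. The median of all genes was -0.02. By family, 8 Klhl members fell and 4 rose of 29, 3 Kbtbd members fell of 7, and 11 Asb members fell of 16. Groups did not overlap in CPM for 17 members lower and 3 higher in SCI vehicle, beside 13.8% and 14.0% of all genes. With library totals in place of TMM, which moves the median of all genes to 0.37, 14 members were lower and 16 higher, beside 9.11% and 47.5% of all genes, so directions here are relative to the bulk of genes. Of the 22 members that fell under TMM, 14 were lower under library totals too, 7 were not called and Asb16 was higher, and all 4 rises were called under both. In such bulk samples fewer cells of a type and less RNA per cell cannot be told apart.

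Among the kelch adaptors of Cul3, Kbtbd13, which binds actin filaments and slows muscle relaxation when mutated in humans, fell furthest. It lies in mm10 on chromosome 9 from 65388684 to 65391652 on the minus strand. Its 4 sham libraries held 20.9, 17.8, 24.1 and 20.1 CPM, and the 6 SCI vehicle libraries 1.28 to 5.43 CPM with a median of 3.63. All 6 injured libraries lay below all 4 sham libraries. The mean fell from 20.7 ± 2.60 to 3.27 ± 1.64 CPM, a log2 fold change of -2.67 ± 0.27 (SE) with an adjusted p of 1.1e-09.

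Klhl34, a kelch gene of little known function on chromosome X from 157818435 to 157820369 on the plus strand, was low and uneven in sham. Its sham libraries held 12.8, 3.88, 11.6 and 22.0 CPM, and SCI vehicle 1.32 to 4.06 CPM with a median of 3.02. The groups overlapped through sham library 2 alone. The log2 fold change was -2.12 ± 0.33 with an adjusted p of 2.9e-06.

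Klhl33, another kelch gene of little known function, lies on chromosome 14 from 50888582 to 50897507 on the minus strand and was far more abundant. Sham libraries held 329.8, 305, 209.6 and 231 CPM, and SCI vehicle 49.5 to 152 CPM with a median of 71.8. No injured library reached the lowest sham library. The log2 fold change was -1.72 ± 0.23 with an adjusted p of 3.1e-07. Klhl31, on chromosome 9 from 77636500 to 77660127 on the plus strand, behaved alike: sham libraries held 434, 480.3, 416 and 420.0 CPM and SCI vehicle 84.9 to 229 CPM with a median of 129, again without overlap. It fell from 438 ± 29.5 to 140.3 ± 60.5 CPM, a log2 fold change of -1.64 ± 0.20 with an adjusted p of 8.3e-08. Kbtbd12 fell less, from 43.1 ± 4.79 to 21.8 ± 5.98 CPM (-0.99 ± 0.15).

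The other muscle-rich kelch genes did not follow. Klhl41 held 563, 565, 621 and 623 CPM in sham and 483 to 661 CPM with a median of 541 in SCI vehicle, and the groups overlapped. Its log2 fold change of -0.09 ± 0.09 did not pass the test (adjusted p 0.46), with a 95% interval of -0.27 to 0.10. Klhl40, which stabilises nebulin and the thin filament protein leiomodin 3, stood at 134 ± 16.9 and 126 ± 14.1 CPM (-0.09 ± 0.12, interval -0.34 to 0.16), and Klhl30, of little known function, at 72.9 ± 10.7 and 68.2 ± 19.2 CPM (-0.10 ± 0.15). With library totals Klhl41 was called higher (0.29). Exons of Klhl40 overlap an antisense gene, Gm47108, and the libraries do not keep strand, so its reads are not fully separable.

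Klhl38, also of little known function, was the only muscle-rich member that rose. It lies on chromosome 15 from 58314573 to 58324169 on the minus strand. There 1446 of its 2212 exon bases overlap the antisense gene Gm15943, so its reads are not fully separable either. Sham libraries held 26.2, 49.2, 45.7 and 36.7 CPM and SCI vehicle 64.8 to 105 CPM with a median of 78.9, so all injured libraries lay above all sham libraries. The log2 fold change was 1.04 ± 0.24 with an adjusted p of 0.00064.

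Among the ankyrin adaptors of Cul5 the muscle-rich members fell nearly without exception, 8 of 9. Asb18, of little known function and on chromosome 1 from 89950220 to 90014666 on the minus strand, fell furthest of all 52 members. Its sham libraries held 32.3, 27.6, 27.8 and 34.1 CPM, and SCI vehicle 2.47 to 7.14 CPM with a median of 4.70. Every injured library lay far below the lowest sham library. The mean fell from 30.5 ± 3.28 to 4.54 ± 1.64 CPM, a log2 fold change of -2.76 ± 0.25 with an adjusted p of 1.7e-10.

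Asb12, on chromosome X from 95470201 to 95557987 on the minus strand, held 28.6, 31.3, 28.5 and 25.8 CPM in sham and 3.66 to 10.9 CPM with a median of 6.45 in SCI vehicle. The groups stood well apart, with a log2 fold change of -2.03 ± 0.21 and an adjusted p of 2.2e-09. Asb10, on chromosome 5 from 24532697 to 24540978 on the minus strand, held 149, 140.0, 166 and 144 CPM in sham and 57.2 to 85.9 CPM with a median of 66.7 in SCI vehicle (-1.13 ± 0.09, adjusted p 1.5e-11). All injured libraries again lay below all sham libraries. Asb15, which has been linked to muscle growth in rodents, fell from 126 ± 18.6 to 55.7 ± 8.65 CPM (-1.18 ± 0.19), and Asb11, whose zebrafish relative acts on Notch signalling, from 122 ± 20.2 to 65.3 ± 19.4 CPM (-0.91 ± 0.15). Asb14 fell from 139 ± 9.41 to 83.9 ± 10.4 CPM (-0.73 ± 0.08) and Asb5 from 211 ± 16.1 to 133 ± 18.7 CPM (-0.67 ± 0.09). These 4 fell by more than the spread within either group, with groups that did not overlap. Exons of Asb5 overlap those of Spcs3 on the opposite strand.

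Asb16, on chromosome 11 from 102268743 to 102279462 on the plus strand, fell least. Sham libraries held 112, 100.2, 103 and 102 CPM and SCI vehicle 78.4 to 99.7 CPM with a median of 91.2, close together but without overlap. Its log2 fold change of -0.20 ± 0.08 had an adjusted p of 0.039, and with library totals it was higher, at 0.18. Asb2 was the muscle-rich ankyrin member that was not called. It held 505, 897, 765 and 708 CPM in sham and 444 to 762 CPM with a median of 562 in SCI vehicle, with wide overlap, and its log2 fold change of -0.33 ± 0.15 had an adjusted p of 0.067.

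**Figure D3:**
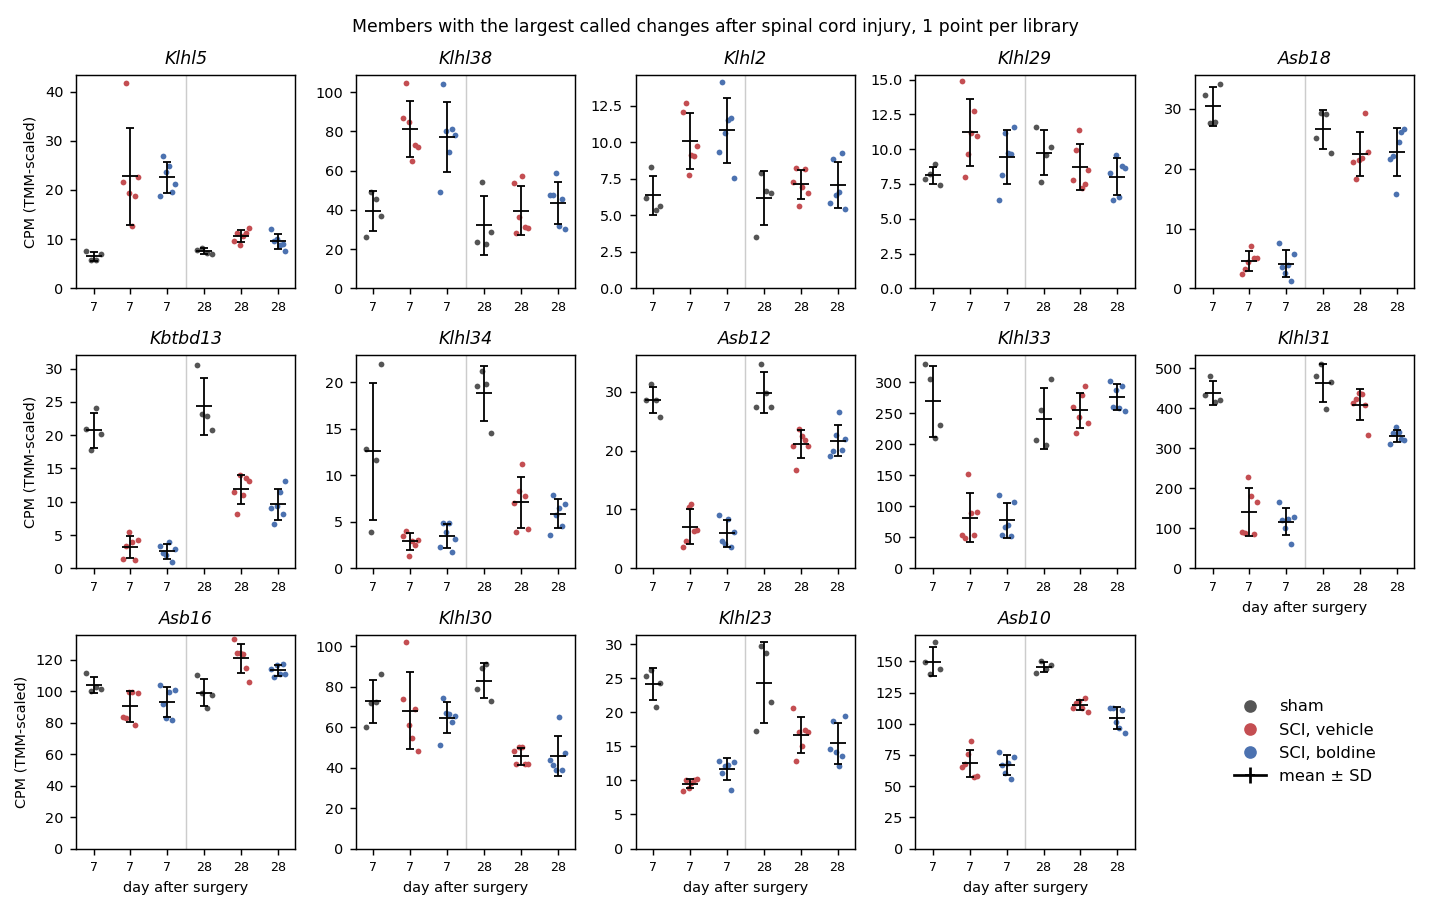
CPM of TMM-scaled libraries is shown for the 14 members with the largest called changes at day 7 or day 28, with 1 point per library, black bars for mean ± SD (4 sham, 6 SCI vehicle and 6 SCI boldine libraries per day) and each vertical axis starting at 0. Asb18, Kbtbd13 and Asb12 drop in all injured libraries at day 7, Asb18 returns near sham at day 28, and Klhl30 is lower at day 28 only.

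Among widely expressed members the largest rise was that of Klhl5, a kelch gene of little known function on chromosome 5 from 65107539 to 65168188 on the plus strand. Sham libraries held 7.53, 5.70, 5.78 and 6.90 CPM, and SCI vehicle 12.6 to 41.7 CPM with a median of 20.4. All injured libraries lay above sham, and 1 of them stood well above the rest. The mean rose from 6.48 ± 0.888 to 22.8 ± 9.90 CPM, a log2 fold change of 1.82 ± 0.21 with an adjusted p of 1.5e-08.

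Klhl2, an adaptor for WNK kinases on chromosome 8 from 64739675 to 64850017 on the minus strand, held 6.15, 8.33, 5.34 and 5.63 CPM in sham and 7.78 to 12.7 CPM with a median of 9.42 in SCI vehicle. The groups overlapped slightly, and the log2 fold change was 0.67 ± 0.19 (adjusted p 0.0050). Klhl29, on chromosome 12 from 5077472 to 5375682 on the minus strand, held 7.85, 8.21, 8.93 and 7.44 CPM in sham and 8.0 to 14.9 CPM with a median of 11 in SCI vehicle, with overlap. A log2 fold change of 0.47 ± 0.17 had an adjusted p of 0.024, and the call ended without sham library 1 or 4 or SCI vehicle library 1, where the adjusted p was 0.057, 0.072 and 0.066.

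The widely expressed member that fell most was Klhl23, on chromosome 2 from 69821944 to 69836651 on the plus strand, of little known function. Its sham libraries held 25.3, 26.2, 20.8 and 24.3 CPM and SCI vehicle 8.45 to 10.2 CPM with a median of 9.78, far apart and with little spread after injury. The log2 fold change was -1.34 ± 0.14 with an adjusted p of 3.9e-09. Asb4, known from developing vessels, fell from 12.5 ± 1.83 to 7.59 ± 3.27 CPM (-0.73 ± 0.22) and Asb8 from 99.2 ± 3.13 to 60.3 ± 8.59 CPM (-0.72 ± 0.09). Smaller falls were those of Kbtbd4 (-0.52 ± 0.09), Klhl24, which stands high at 209 ± 19.5 CPM in sham (-0.49 ± 0.08), Klhl28 (-0.43 ± 0.15), Klhl8 (-0.37 ± 0.11), Klhl21 (-0.34 ± 0.10) and Asb1 (-0.29 ± 0.12). Of these 9, Klhl23 and Asb8 were also called lower with library totals, and Klhl21, Klhl8 and Asb1 then had log2 fold changes of 0.07, 0.00 and 0.10, none called. Reads of Kbtbd4 overlap those of Ndufs3 and Ptpmt1, and reads of Klhl21 those of Gm9768, on the opposite strand.

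The remaining 22 widely expressed members did not pass the test, with log2 fold changes from -0.63 for Klhl3 to 0.66 for Klhl13. They include Klhl12, an adaptor for the vesicle coat protein SEC31 (0.11 ± 0.08), Klhl20 (0.05 ± 0.12), Klhl9, a partner of Klhl13 in mitosis (0.12 ± 0.08), Klhl22 (0.20 ± 0.10), Klhl7 (0.12 ± 0.17), Klhl18 (-0.16 ± 0.12), Klhl26 (-0.23 ± 0.10), Klhl25 (-0.43 ± 0.21) and Klhl11 (0.50 ± 0.22). At the low end of expression lay, among others, Klhl3 (1.5 ± 0.330 CPM in sham), Klhl36 (1.69 ± 0.820), Klhl15 (3.05 ± 1.31) and Klhl42 (3.00 ± 0.252), where few reads limit what could be detected. Kbtbd2, which controls the p85 subunit of PI3 kinase, stood at -0.16 ± 0.09, and Kbtbd3, Kbtbd7 and Kbtbd8 at -0.32, 0.08 and -0.13. Asb3, Asb6, Asb7 and Asb13 stood at -0.06, 0.16, -0.28 and -0.13 on the log2 scale. Reads are also not fully separable for Kbtbd2 (Gm10209), Klhl9 (Gm26566) and Klhl15 (Mir7673), whose exons overlap the genes in brackets.

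Markers of the fibre moved in the same direction as the muscle-rich members at 7 days. The summed level of the 8 fibre markers was 163489 to 221292 CPM in sham and 65415 to 136064 CPM in SCI vehicle, and 7 of 8 fell. Of 5 markers each, 4 fell for endothelium (184 to 262 and 124 to 168 CPM summed), 3 for fibro-adipogenic progenitors (178 to 313 and 136 to 209), 4 for adipocytes (83.0 to 175 and 74.8 to 87.4) and 2 for Schwann cells (36.8 to 349 and 34.5 to 72.6). Macrophage markers had 1 rise of 5 (34.7 to 56.0 and 27.0 to 50.5) and erythrocyte markers no call (124 to 267 and 111 to 249). Smooth muscle markers had 1 rise, that of Des, which fibres also express, and 1 fall (2778 to 3779 and 4399 to 5559). Lymphocyte markers stayed at or under 2.36 CPM summed, and none of the 5 passed the filter. The part of these shifts in the members' changes was not tested.

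At 28 days few members differed from sham, and their share of 11.5% was not far from that of all genes. Of the 52 members 5 were lower and 1 higher in SCI vehicle, beside 4.88% of all genes lower, 4.05% higher and 8.93% called in either direction. Muscle-rich members had 4 falls and 1 rise of 18 with a median log2 fold change of -0.19, and widely expressed members 1 fall of 34 with a median of -0.03, where the median of all genes was 0.00. Groups did not overlap for 6 members lower and 1 higher, beside 5.92% and 5.36% of all genes. With library totals, which move the median of all genes to -0.10, 9 members were lower and 0 higher, beside 8.41% and 2.0% of all genes. The summed fibre markers were at 166619 to 183466 CPM in sham and 202223 to 238623 CPM in SCI vehicle, with 1 rise and 1 fall of 8, and endothelial markers at 287 to 349.6 and 202 to 248 CPM, with 2 falls of 5. In the comparison with a term for the library sets, which sets the sham libraries against SCI vehicle libraries 1 to 4, all 6 of these calls held, and 7 of 52 members were called beside 6.43% of all genes.

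Klhl34 had the largest fall at this time. Sham libraries held 19.6, 21.3, 19.9 and 14.5 CPM, and SCI vehicle 3.93 to 11.2 CPM with a median of 7.41, now without overlap. The fall had a log2 fold change of -1.41 ± 0.30 with an adjusted p of 0.0025, and -1.31 with the term for library sets. Kbtbd13 held 30.6, 23.1, 22.8 and 20.8 CPM in sham and 8.18 to 14 CPM with a median of 12.3 in SCI vehicle, also without overlap, a log2 fold change of -1.04 ± 0.24 (adjusted p 0.0053).

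Klhl30 was the member called at 28 but not at 7 days. It lies on chromosome 1 from 91351016 to 91362416 on the plus strand. Sham libraries held 78.9, 89.2, 91.1 and 73.2 CPM, and SCI vehicle 41.7 to 50.2 CPM with a median of 44.9. Every injured library lay far below every sham library, with a log2 fold change of -0.87 ± 0.15 and an adjusted p of 0.00021. With the term for library sets it was -0.81 (adjusted p 0.0025).

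Asb10 held 141, 150.4, 144 and 147 CPM in sham and 109.7 to 120.4 CPM with a median of 114 in SCI vehicle, a small but clean separation (-0.34 ± 0.09, adjusted p 0.014). Klhl23 held 17.3, 29.8, 28.8 and 21.5 CPM in sham and 12.8 to 20.6 CPM with a median of 17.1 in SCI vehicle, with overlap through sham library 1. Its log2 fold change was -0.55 ± 0.14 (adjusted p 0.010), and leaving out sham library 2 or 3 ended the call (adjusted p 0.080 and 0.068). Asb16 rose, with 110.4, 98.9, 89.5 and 97.9 CPM in sham and 106 to 133 CPM with a median of 124 in SCI vehicle, and the groups overlapped. Its log2 fold change of 0.29 ± 0.08 had an adjusted p of 0.019. That call ended with library totals (adjusted p 0.074), with no filter on low counts (0.055) and without sham library 2, 3 or 4 (0.051, 0.11 and 0.053).

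Most other muscle-rich members lay near sham at 28 days. Klhl41 stood at 624 ± 23.4 and 577 ± 41.3 CPM (-0.11 ± 0.09), Asb2 at 659 ± 124 and 544 ± 51.5 (-0.28 ± 0.15) and Klhl40 at 147 ± 30.9 and 128 ± 21.9 (-0.19 ± 0.12). Klhl31 stood at 464 ± 47.6 and 408 ± 38.8 CPM (-0.18 ± 0.21), Klhl33 at 241 ± 49.3 and 255 ± 28.3 (0.08 ± 0.23) and Klhl38 at 32.2 ± 15 and 39.6 ± 12.7 (0.30 ± 0.24). Among the ankyrin members log2 fold changes that did not pass the test were -0.50 ± 0.20 for Asb12, whose groups did not overlap, -0.25 ± 0.23 for Asb18, -0.24 ± 0.08 for Asb14, 0.18 ± 0.20 for Asb15, 0.13 ± 0.15 for Asb11 and -0.12 ± 0.09 for Asb5. Kbtbd12 stood at -0.10 ± 0.15. Of the widely expressed members, Klhl5 was above sham in all 6 SCI vehicle libraries but did not pass the test (0.49 ± 0.21, adjusted p 0.14), and Klhl7 stood at 0.43 ± 0.17 (adjusted p 0.11). These are the highest of the 33 widely expressed members that were not called, whose log2 fold changes began at -0.36 for Asb1 (adjusted p 0.052).

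The change of the injury effect between the days was itself tested. The effect was higher at 28 than at 7 days for 18 members and lower for 3, beside 11.6% and 12.3% of all genes and 23.9% in either direction. For the muscle-rich members these were 12 and 1 of 18, with a median difference of 0.75 on the log2 scale, and for the widely expressed ones 6 and 2 of 34, with a median of 0.05, where all genes had 0.03. All 18 had been called lower at 7 days, and the 4 other members lower at 7 days, for which no difference was called, were Asb1, Klhl8, Klhl21 and Klhl34. With library totals, which move the median of all genes to -0.46, 8 members had a higher and 16 a lower effect at 28 days, beside 3.56% and 42.1% of all genes, and all 8 were among the 18. The 28-day sham libraries also lie in a different library set from all 7-day libraries. With a term for the sets 17 members had a higher and 3 a lower effect at 28 days. The share of all genes under that term is not given here, so these counts are no result about the members.

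Asb18 showed the largest difference, 2.52 ± 0.34 (adjusted p 3.7e-06), from -2.76 at 7 days to -0.25 at 28 days. Klhl33 followed with 1.80 ± 0.33 (adjusted p 0.00018), Kbtbd13 with 1.64 ± 0.37 (adjusted p 0.0013) and Asb12 with 1.53 ± 0.29 (adjusted p 0.00026). The 3 members whose effect was lower at 28 days were Klhl5 (-1.33 ± 0.29, adjusted p 0.0010), which had risen at 7 days, Klhl30 (-0.77 ± 0.21, adjusted p 0.0075), which fell at 28 days, and Klhl22, an adaptor known for controlling the nutrient-signalling protein DEPDC5 (-0.46 ± 0.14, adjusted p 0.013), which was called at neither day. The 4 members lower at both days were Asb10, Kbtbd13, Klhl23 and Klhl34.

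**Figure D4:**
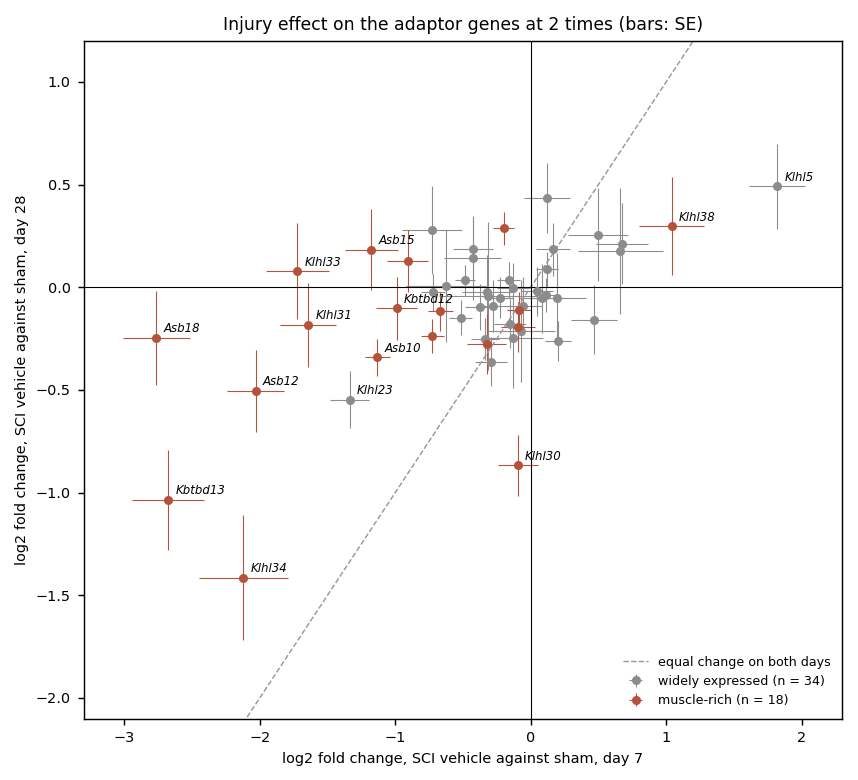
Each point is a member, with its log2 fold change in SCI vehicle against sham at day 7 on the horizontal and at day 28 on the vertical axis; bars are SE, red points the 18 muscle-rich and grey points the 34 widely expressed members, and the dashed line marks equal change. Asb18, Klhl33 and Klhl31 lie far left near the zero line of day 28, Asb12 lies far left and at -0.50 on the day 28 axis, Klhl34 and Kbtbd13 lie low on both axes, and Klhl30 is low on the day 28 axis alone.

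A mean over the 18 muscle-rich members in each library, as a log2 difference from the sham mean of the same day, restates the values above without a test. Sham libraries centre on their own mean by construction. At 7 days it ran from -0.06 to 0.06 in sham, -1.26 to -0.76 in SCI vehicle and -1.61 to -1.0 in SCI boldine. At 28 days it ran from -0.07 to 0.14 in sham, -0.43 to -0.13 in SCI vehicle and -0.33 to -0.23 in SCI boldine. Injured libraries were thus below sham at both times, by far more at 7 days. At 28 days sham and boldine lie wholly in different library sets, and SCI vehicle spans both.

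Boldine against vehicle in injured muscle gave no called member at either time. At 7 days 0 of 52 members were called beside 0.0334% of all genes, and at 28 days 0 of 52 beside 0.0201%. By edgeR 9 members had an unadjusted p under 0.05 at 7 days (5 of 18 muscle-rich, 4 of 34 widely expressed) and 2 at 28 days (0 and 2), beside 9.6% and 9.57% of all genes. DESeq2 called 2 members at 7 days, Asb11 and Asb14, and 0 at 28 days, beside 0.675% and 0.786% of the genes to which it gave an adjusted p. No member had groups that did not overlap, beside 0.495% of all genes at 7 days and 0.629% at 28 days. Median log2 fold changes were -0.15 for muscle-rich and -0.00 for widely expressed members at 7 days, and -0.01 and -0.00 at 28 days, where all genes had -0.00 and -0.01. The summed fibre markers at 7 days were at 65415 to 136064 CPM with vehicle and 67024 to 115342 CPM with boldine.

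The smallest p-values at 7 days belonged to 2 ankyrin adaptors. Asb14 held 71.1 to 97.0 CPM with a median of 85.8 in SCI vehicle and 57.7 to 71.2 CPM with a median of 68.6 in SCI boldine. The groups touched at the edge, and the log2 fold change was -0.33 ± 0.08 with an interval of -0.49 to -0.18 and an adjusted p of 0.074, or 0.0079 by DESeq2. Asb11 held 38.3 to 88.7 CPM with a median of 68.1 in SCI vehicle and 33.7 to 47.9 CPM with a median of 45.5 in SCI boldine, where 1 boldine library lay below the vehicle range and the other 5 in its lower part. The log2 fold change was -0.59 ± 0.14, with an interval of -0.87 to -0.31 and an adjusted p of 0.074, or 0.0089 by DESeq2. It was also called with no filter on low counts (adjusted p 0.030) and without SCI vehicle library 2 or 6 (0.0052 and 0.031).

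The smallest p-values for higher levels with boldine at 7 days were those of Klhl23 (9.55 ± 0.709 and 11.6 ± 1.60 CPM, 0.28 ± 0.13, adjusted p 0.48) and Asb3 (6.08 ± 1.08 and 7.25 ± 0.884 CPM, 0.25 ± 0.12, adjusted p 0.51), and neither passed the test. Exons of Asb3 overlap Gpr75 on the same strand. At 28 days they were those of Klhl11 (0.50 ± 0.19, adjusted p 0.36) and Klhl28 (0.24 ± 0.14, adjusted p 0.62), and for lower levels Kbtbd2 (-0.17 ± 0.08, adjusted p 0.46) and Asb10 (-0.14 ± 0.08, adjusted p 0.66). The groups of each overlapped. With a term for the library sets, which leaves SCI vehicle libraries 5 and 6 for comparison, Klhl28 changed sign, to -0.02.

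**Figure D5:**
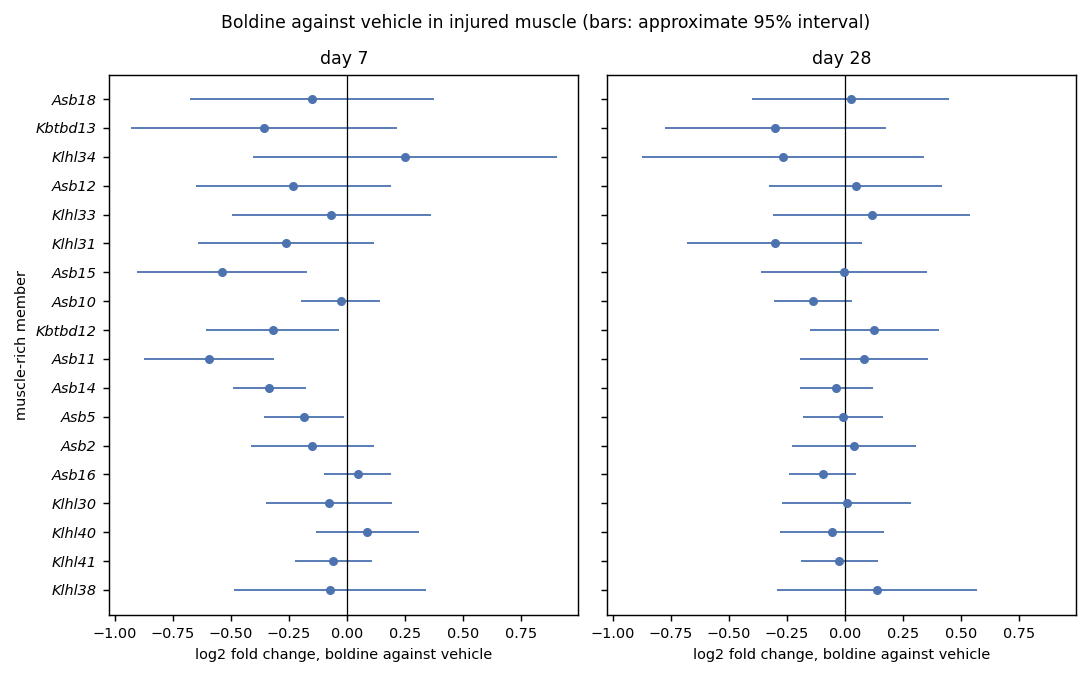
Points give the log2 fold change of SCI boldine against SCI vehicle for the 18 muscle-rich members at day 7 (left) and day 28 (right), ordered by the size of their change after injury at day 7, and bars the approximate 95% interval. At day 7 the intervals of Asb11, Asb14, Asb15, Kbtbd12 and Asb5 lie below 0, though none of these passed the test adjusted over all genes, and at day 28 every interval holds 0.

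Injured muscle with boldine was also set against sham, with the same sham libraries as above. At 7 days 22 members were lower and 4 higher, beside 22.5% and 21.7% of all genes and 44.2% in either direction. The muscle-rich members had 13 falls and 1 rise with a median of -1.23, and the widely expressed ones 9 falls and 3 rises with a median of -0.09, where all genes had -0.01. Library totals gave 15 lower and 20 higher, beside 7.98% and 52.1% of all genes. The largest falls were those of Kbtbd13 (2.56 ± 1.08 CPM with boldine, -3.03 ± 0.27, adjusted p 1.0e-10), Asb18 (4.08 ± 2.27 CPM, -2.91 ± 0.25, adjusted p 4.6e-11), Asb12 (-2.26 ± 0.21, adjusted p 2.3e-10) and Klhl31 (-1.91 ± 0.21, adjusted p 4.5e-09). The rises were those of Klhl5 (22.5 ± 3.19 CPM, 1.80 ± 0.21, adjusted p 1.6e-08), Klhl13 (1.07 ± 0.31, adjusted p 0.0052), Klhl38 (0.96 ± 0.24, adjusted p 0.0013) and Klhl2 (0.77 ± 0.19, adjusted p 0.0014). Klhl13 is a low gene, with sham libraries at 4.67, 2.74, 0.963 and 1.54 CPM and boldine libraries at 2.99 to 6.42 CPM with a median of 5.43, and its exons overlap Gm14523 on the same strand. Asb2, which did not pass with vehicle, was called lower with boldine, at 517 ± 79.7 CPM (-0.47 ± 0.14, adjusted p 0.0078), while boldine against vehicle for this gene gave -0.15 ± 0.13 with an interval of -0.41 to 0.12.

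At 28 days boldine against sham called 7 members lower and 2 higher, beside 9.35% and 8.79% of all genes. In either direction 17.3% of members and 18.1% of all genes were called, so the count of members is near the general share. Library totals gave 14 lower and 2 higher, beside 13.4% and 5.63%. The muscle-rich members had 5 falls with a median of -0.23, and the widely expressed ones 2 falls and 2 rises with a median of -0.04. Of the markers, 3 of 8 rose and 1 fell for fibres (166619 to 183466 CPM summed in sham and 205375 to 236096 with boldine), and 3 of 5 fell for endothelium (287 to 349.6 and 172 to 259), 2 of 5 for fibro-adipogenic progenitors (212 to 229 and 219.5 to 313) and 2 of 5 for smooth muscle (3329.9 to 3728 and 3009 to 3321). Their part in the members' changes was not tested. Called lower were Klhl34 (-1.68 ± 0.31, adjusted p 0.00023), Kbtbd13 (-1.33 ± 0.25, adjusted p 0.00024), Klhl30 (-0.86 ± 0.15, adjusted p 0.00011) and Klhl23 (-0.66 ± 0.14, adjusted p 0.0011), and, by less, Asb10 (-0.48 ± 0.09), Klhl21 (-0.39 ± 0.10) and Asb14 (-0.27 ± 0.08). Called higher were Klhl11 (0.76 ± 0.22, adjusted p 0.017) and Klhl7 (0.49 ± 0.17, adjusted p 0.043). Groups did not overlap for 6 members lower and 0 higher, beside 16.8% of all genes in either direction. Klhl31 and Asb12 were among these 6 and were not called, while the called Klhl23, Klhl21 and Asb14 overlapped sham. With a term for the sets, which widens the errors and under which 1.46% of all genes were called, only Kbtbd13 was called (-1.59, adjusted p 0.045). The log2 fold changes of the others were then -1.34 for Klhl34, -0.67 for Klhl30, -0.74 for Klhl23, -0.48 for Asb10, -0.25 for Klhl21, -0.13 for Asb14, 0.98 for Klhl11 and 0.52 for Klhl7. The call of Klhl11 ended without sham library 1, and that of Klhl7 without sham library 1, 3 or 4 or boldine library 1, 2, 3, 4 or 5.

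Sham muscle at 28 against 7 days called 2 members, both lower, beside 1.5% of all genes lower, 0.388% higher and 1.89% in either direction. Klhl28 held 15.7, 13.0, 10.1 and 10.4 CPM at 7 and 6.28, 8.70, 8.23 and 8.26 CPM at 28 days, without overlap (-0.64 ± 0.17, adjusted p 0.040). Klhl24, whose human variants cause fragile skin and heart muscle disease, held 231, 217, 185 and 204 CPM at 7 and 168, 169.5, 168 and 166 CPM at 28 days (-0.32 ± 0.08, adjusted p 0.042). The 28-day values of Klhl24 were within a narrow band below all 7-day values. The sham groups of the 2 days also lie wholly in different library sets. With a term for the sets the log2 fold changes were smaller, -0.23 for Klhl28 and -0.11 for Klhl24, and neither was called. Both calls also ended with library totals (-0.62 and -0.30) and with no filter on low counts (-0.63 and -0.31), where the folds stayed about the same. Each call ended without several single sham libraries, Klhl28 without 7-day library 1 or 2 or any 28-day library and Klhl24 without 7-day library 1, 2 or 4 or any 28-day library.

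Shared parts of these ligases were described by lists of their genes. Of 8 scaffold and RING genes (Cul3, Cul5, Rbx1, Rnf7, Elob, Eloc, Arih1 and Arih2), 1 rose and 2 fell at 7 days, with a median of -0.07. Under TMM the counts of this and the following lists stand beside 44.6% of all genes called at 7 days and 8.93% at 28 days. A count of 3 of 8 is near the former share. Cul3, the scaffold of the kelch adaptors, stood at -0.07 ± 0.07 and did not pass the test, while Cul5, the scaffold of the ankyrin adaptors, fell from 125 ± 8.43 to 110.1 ± 11.4 CPM (-0.19 ± 0.07, adjusted p 0.026). Arih1, a partner ligase of several cullins, fell (-0.19 ± 0.06) and Arih2, the partner of Cul5, rose (0.22 ± 0.07). At 28 days Arih2 (0.25 ± 0.07) and Cul5 (0.24 ± 0.07) were higher and Eloc stood at 0.09 ± 0.06. With library totals all 8 were higher at 7 days, beside 47.5% of all genes higher and 9.11% lower. With that scaling 0 were called at 28 days, beside 2.0% of all genes higher and 8.41% lower.

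Genes that attach NEDD8, the modifier that switches cullins on, had 2 rises and 4 falls of 10 at 7 days, a share not far from that of all genes, with a median of -0.02. The smallest p-values were those of the cofactors Dcun1d2 (109 ± 3.73 and 69.8 ± 7.94 CPM, -0.64 ± 0.08) and Dcun1d1 (-0.71 ± 0.12) and of Ube2f, the NEDD8 enzyme of Cul5 (-0.46 ± 0.07), all lower. At 28 days Ube2f was lower (-0.25 ± 0.07), and Dcun1d4 (-0.22 ± 0.10) and Dcun1d5 (-0.15 ± 0.07) were not called. The COP9 signalosome, which removes NEDD8, together with the exchange factors Cand1 and Cand2, had rises alone: 8 of 11 rose and 0 fell at 7 days, with a median of 0.30. Cops5, the catalytic subunit, rose from 113 ± 7.88 to 177 ± 12.7 CPM (0.65 ± 0.07, adjusted p 7.6e-09), Cops7a by 0.42 and Cops6 by 0.31 on the log2 scale. None of the 11 was called at 28 days, where Cops5 stood at 0.17 ± 0.07, Cand1 at 0.28 ± 0.13 and Cand2 at -0.15 ± 0.07. With library totals 6 NEDD8 genes were higher and 2 lower at 7 days, and all 11 removal and exchange genes were higher. These counts stand beside 47.5% of all genes higher and 9.11% lower.

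Known partners or substrates had 3 rises and 4 falls of 11 measured at 7 days (Aurkb of the 12 listed did not pass the filter), with a median of 0.06. Des, the muscle filament protein desmin and a reported partner of Asb2, rose from 3359.9 ± 440.1 to 4943 ± 401 CPM (0.56 ± 0.09), Ckb, the creatine kinase bound by human ASB9, fell (-1.12 ± 0.25), and the Asb2 substrate Flna fell (-0.70 ± 0.16). Neb, the nebulin gene, stood at -0.24 ± 0.12 at 7 days and rose at 28 days (0.45 ± 0.12), Dvl1 rose at 28 days (0.17 ± 0.05), and Flnc, the substrate of Klhl31, stood at -0.51 ± 0.17 at 28 days (adjusted p 0.054). Among 9 kelch or BTB genes under other symbols 2 rose and 3 fell at 7 days, again not far from the share of all genes, with a median of 0.05. Ivns1abp rose (0.86 ± 0.17), Rhobtb3 fell (-0.90 ± 0.11) and Spop, another Cul3 adaptor, fell (-0.58 ± 0.07), while none was called at 28 days, with Enc1 at -0.67 ± 0.31, Ivns1abp at -0.27 ± 0.17 and Btbd1 at 0.08 ± 0.07. Library totals gave 6 higher and 1 lower partner and 5 higher and 2 lower relatives at 7 days, beside 47.5% and 9.11% of all genes.

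The 2 members with the highest mean CPM varied little across the 6 groups, so likeness to them rests on small differences. Over the 6 group means of log2 CPM, Asb2 ranged by 0.46 and Klhl41 by 0.23. Among genes with a mean of at least 5 CPM, the highest Pearson correlations with Asb2 over these 6 means were those of Otub2 (0.996), Rps6kc1 (0.994), Tubgcp5 (0.991), Slc45a4 (0.989) and Desi2 (0.986). With Klhl41 they were those of Ifrd1 (0.998), Lmod3 (0.998), Gm7008 (0.997), Mpc1-ps (0.995) and Sephs2 (0.995). The genes listed for Asb2 ranged by 0.35 (Tubgcp5) to 1.58 (Otub2), and those for Klhl41 by 0.60 (Sephs2) to 1.15 (Gm7008). The correlations thus compare shape and not size, and taking the highest of many genes over 6 means favours high values. All 6 means come from libraries scaled together, and the correlations are given as a description.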

How the data were processed

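The authors deposited 1 table of raw read counts per gene (55487 Ensembl identifiers, 32 libraries). Per the submitters' processing notes, FastQC, Trim Galore, cutadapt and STAR with mm10 were used. A counting tool is not given in the sources used here, nor is its strand setting or any version. Names came from GENCODE M21 by identifier without version (55227 matched, and the other 260 held 0.0189% of counts). No libraries were identical.

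Genes were filtered with filterByExpr (minimum count 10, minimum total 15), scaled by TMM and tested two-sided with edgeR 4.0.16 (R 4.3.3) in 1 fit of all 32 libraries with a mean per group. P-values were adjusted by Benjamini-Hochberg over 14955 genes. Standard errors are the log2 fold change over the root of F, and intervals (95%) follow from them and are approximate. Alternatives were run with limma 3.58.1 and DESeq2 1.42.0, other scalings, no filter, a replicate block, a term for the library sets and each library left out. The edgeR steps were tested on simulated data. Promoter windows and sequences are from RefSeq (GRCm38.p6), and gene positions are from mm10. Protein sequences were not used here.

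Members, lists and tests were chosen with earlier results of these data known. The text gives each sham library and the range and median of each SCI group for the 6 called members with the largest rise and fall in each SCI vehicle against sham comparison, up to 4 called members a direction in the others (or the 2 with the smallest p), and the 3 genes with the smallest p of each ligase list at each day; other members were added so that all are accounted for. Counts limit the precision of low genes: 3 counts are about 0.3 CPM in these libraries.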

Additional observations from a re-analysis of the deposited data

Results flagged for a closer look

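Klhl31 in 28-day SCI vehicle library 6 stood apart from its group, at 333 CPM where the other 5 libraries held 408 to 439 CPM. Klhl23 in 7-day SCI boldine library 5 was low, at 8.61 CPM where the others held 11.1 to 12.9 CPM. These are 2 of 84 groups examined for the 14 members with the largest called changes after injury, and chance alone flags about 5% of groups.

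The injury effect differed between the days, by the test of that difference, for Asb18 (2.52 on the log2 scale, 28 minus 7 days), Klhl33 (1.80), Kbtbd13 (1.64) and Asb12 (1.53), whose falls were smaller at 28 days. It differed the other way for Klhl5 (-1.33), Klhl30 (-0.77) and Klhl22 (-0.46).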

How the results depend on the processing

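Of the values for single genes under the alternatives run, 874 kept direction and side of the threshold, 48 lost and 5 gained the call, and 1 reversed, Klhl28 for boldine against vehicle at 28 days with a term for the library sets (-0.018). A setting can change calls over the whole table. Counts of members in this section that have no share of all genes beside them are therefore no result about the members. Members called in SCI vehicle against sham at 28 days were 10 with voom and quality weights and 11 with only the groups compared in the fit, against 6. For boldine against vehicle at 7 days 1 was called with no filter and 2 with DESeq2, which called 0.675% of the genes it gave an adjusted p. Leaving out single libraries gave 0 to 1. For boldine against sham at 28 days 16 were called with library totals, beside 13.4% of all genes lower and 5.63% higher. In that comparison 15 were called with voom, and 1 with the term for library sets, beside 1.46% of all genes. For sham at 28 against 7 days 0 were called with library totals, with no filter, with the replicate block or with the set term, 1 with only the groups compared, and 0 to 2 with single libraries left out. The cause was not tested. Leaving out single libraries gave 22 to 29 and 4 to 6 calls in SCI vehicle against sham at 7 and 28 days, 25 to 28 and 6 to 9 in boldine against sham, and 19 to 22 for the difference between days.

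Same-numbered libraries correlated at -0.21 to 0.26 in their deviations from group means, so the numbers were not taken to pair mice. With the replicate block 24 members were called in SCI vehicle against sham at 7 days and 6 at 28 days, 26 and 8 in boldine against sham, and 20 for the difference, where Klhl22 (adjusted p 0.054) lost its call, as did Klhl29 at 7 days (0.088). Low counts limit Klhl3, Klhl36, Kbtbd8 and Klhl42, the members with the lowest mean CPM, most.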
